A study of Daphnia magna with 84 samples.

Results

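The 40 most abundant gene models of the water flea Daphnia magna were followed in RNA from whole animals. The counts of every model were summed over all 84 libraries, and the 40 models with the highest sums among the 26646 whose IDs begin with APZ42 were taken, out of 27350 rows in the count table. Each library came from 1 animal. Animals were fed the green alga Chlamydomonas reinhardtii, which had been held beforehand in a coal ash mixture, and the mixture is named by its mercury content: 4, 1, 0.25, 0.12, 0.06 or 0.015 nM Hg/L. A further set of animals is labelled with concentration 0. The labels give the treatment of every animal as coal ash, the animals at concentration 0 included, and do not describe that group further. Animals were taken at day 6, 10, 17 or 24, so that 7 concentrations and 4 days gave 28 groups of 3 animals. Ribosomal RNA was depleted before library preparation.

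In whole-animal RNA a few transcripts can take a large part of the reads. Ribosomal and mitochondrial RNAs, digestive enzymes, yolk protein, haemoglobin and cuticle proteins are typical of crustaceans, and several of these are known to vary with age, moult and brood cycle. A share of a library is a relative measure: when 1 transcript takes more of the reads, the shares of all others fall. The files pair no ID with a gene name, and no ID matched the reference gene table, so members go by their IDs and no product is named for any of them. Without names, the tissue label, whole organism, could not be set against marker genes. In RNA from whole animals, fewer cells of a type and less RNA per cell cannot be told apart.

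Library totals ran from 7127253 to 27952023 counts, with a median of 17553926. The 3 animals at concentration 0 on day 24 stood apart: their libraries held 11117116, 7127253 and 9083418 counts, of which 121871, 25520 and 46138 lay outside the 5 most abundant models. A further 2 libraries, 1 at 0.12 nM Hg/L on day 24 and 1 at 4 nM Hg/L on day 6, had under 500000 counts outside those 5 models, at 408047 and 465099. Shares by day and concentration, and the main tests, are given with and without the concentration 0, day 24 animals where results rest on them. Comparisons of exposed animals with concentration 0 at day 24 need them. Tests of library shares, and those with other tools, were not run without these 3 animals together. In the titles, the animal numbered replicate 3 of 0.06 nM Hg/L on day 24 carries a number within the run of numbers given to 0.12 nM Hg/L, and the libraries numbered replicate 1 of 0.12 nM Hg/L on days 6 and 24 carry the same number. Groups were kept as the concentration and day labels give them. The 95% Wilson interval of a share of the 40 members, or of any of the 5 highest, in 1 library was at most 0.0567 percentage points wide, and such intervals cover counting error only. No member was at 0 in any library, and the lowest count of any member in a library was 10.

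The 40 members held 95.4% of all counts in the table. Over the 84 libraries their share ran from 90.9% to 99.8%, with a median of 94.96%. The 5 highest members alone held 91.9% of all counts and the other 35 held 3.51%. Outside the 5 highest, those 35 members made up 43.2% of the remaining counts. The step between ranks 5 and 6 was 13.1-fold in summed counts, and rank 1 stood 1786-fold above rank 40. Only 15 members exceeded 0.1% of all counts. The members were chosen by their summed counts, so these values describe them and were not tested.

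The first 5 ranks were held by the same 5 models in every one of the 84 libraries. APZ42_024615 held 29.1% of all counts; it is annotated on scaffold01685 from 306 to 1983, plus strand, in 5 exons. APZ42_004030 held 19.6% and lies on contig22920 from 446 to 963, plus strand, in 3 exons. APZ42_003886 held 18.3%, and its single exon of 204 bases lies on contig22203 from 1 to 204, minus strand. APZ42_024616 held 15.2% and lies beside APZ42_024615 on scaffold01685, from 1997 to 8445 on the minus strand, in 2 exons. APZ42_003885 held 9.61%, with 1 exon on contig22202 from 194 to 730, plus strand. APZ42_024615 ranked first in 70 libraries and APZ42_004030 in the other 14. The genome build behind these coordinates is not given in the sources used here.

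Ranks 6 to 8 formed a second tier. APZ42_016403, on scaffold00626 from 462302 to 470440, held 0.732% of all counts. APZ42_004029 held 0.545% and is annotated on contig22919 from 1 to 636, and APZ42_006898 held 0.249% and is annotated on contig41154 from 1 to 252. At the limit, APZ42_016902 at rank 40 had 241193 counts and APZ42_012354 at rank 41 had 232332, so the last place rested on a difference of a few percent. The 40 were the same when models were ranked by mean share instead of summed count, without the 3 animals at concentration 0 on day 24, and without each library in turn. Ranking by counts per kilobase of exon kept all of the 5 highest and 28 of the 40 members.

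As annotated, the members lay on sequences named contigs, as opposed to scaffolds, more often than other models did. Of the 40, 18 (45.0%) were on contigs, against 23.8% of the 23634 other APZ42 models with counts, and 17 (42.5%) began at base 1 of their sequence, against 18.9%. Of the 18 members on contigs, 16 began at base 1, where a model can be cut short by the end of the assembled sequence. Single-exon models made up 30.0% of the members and 26.5% of the others. Models with 20 exons or more made up 15% of the members and 1.46% of the others, among them APZ42_020544 with 73 exons and APZ42_017757 with 61. Exon length ran from 204 to 29484 bases, with a median of 1375.5, against 1472 for the other models. These shares are descriptions of the annotation and were not tested.

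Members shared 5 of the 32 sequences they lie on. On scaffold01685, APZ42_024615 and APZ42_024616 lie on opposite strands with 13 bases between them, and APZ42_024618, of 1 exon from 8517 to 8792, follows after a gap of 71 bases on the same strand as APZ42_024616. On scaffold03326, APZ42_034044 (54714 to 61875, minus strand) and APZ42_034042 (64386 to 70402, plus strand) are separated by 2510 bases with no model between them, while APZ42_034043 and APZ42_034074 lie farther off on the same scaffold. The other sequences with more than 1 member were scaffold00642 (APZ42_016902 and APZ42_016942), scaffold01005 (APZ42_020544 and APZ42_020697) and scaffold02850 (APZ42_030553 and APZ42_030615), where 15 to 78 other models lay between them. Models this close, and near-identical copies elsewhere, can exchange reads. The strand setting of the counting is not given in the sources used here, so the division of reads between neighbours was not checked.

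At day 6 the 40 members held 95.1% ± 1.90 of counts (SD, n = 21 on every day). Day 10 had 95.5% ± 1.49, day 17 had 94.8% ± 1.60 and day 24 had 96.0% ± 2.63. When the 3 animals at concentration 0 were left out, the day 24 value was 95.4% ± 2.29 (SD, n = 18). These means differed by less than the SD within a day. The 35 members below the first 5 held 4.04% ± 0.99 of counts at day 6 and 2.90% ± 0.60 at day 10 (SD, n = 21 each). For day 17 the share was 3.89% ± 0.93, and for day 24 it was 3.17% ± 1.63. Their day 24 share was 3.63% ± 1.25 (SD, n = 18) without the animals at concentration 0.

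By concentration, the share of the 40 was 95.9% ± 2.59 (SD, n = 12) at 0, 95.04% ± 2.08 at 0.015, 95.3% ± 2.01 at 0.06, 95.8% ± 2.13 at 0.12, 94.6% ± 1.06 at 0.25, 94.9% ± 1.55 at 1 and 96.0% ± 2.03 at 4 nM Hg/L, each over 12 animals. Without day 24 the share at concentration 0 was 94.7% ± 1.39 (SD, n = 9), so its place near the top of the order rested on the 3 day 24 animals. The steps between neighbouring concentrations were smaller than the SD of at least 1 of the concentrations in each pair, and no test was run on them. Of the 28 groups, concentration 0 on day 24 had the highest share, with 99.70%, 99.83% and 99.78% in its 3 animals. The group at 0.12 nM Hg/L on day 24 came next with 98.71%, 98.78% and 99.22%. At 0.06 nM Hg/L on day 24 the shares were 92.3%, 97.3% and 96.7%, the last of them in the animal whose title number falls among those of 0.12 nM Hg/L. At 4 nM Hg/L on day 6 the 3 animals differed, with 98.82%, 99.42% and 93.99%. Group means of the other 25 groups lay between 93.2% and 96.7%.

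**Figure D1:**
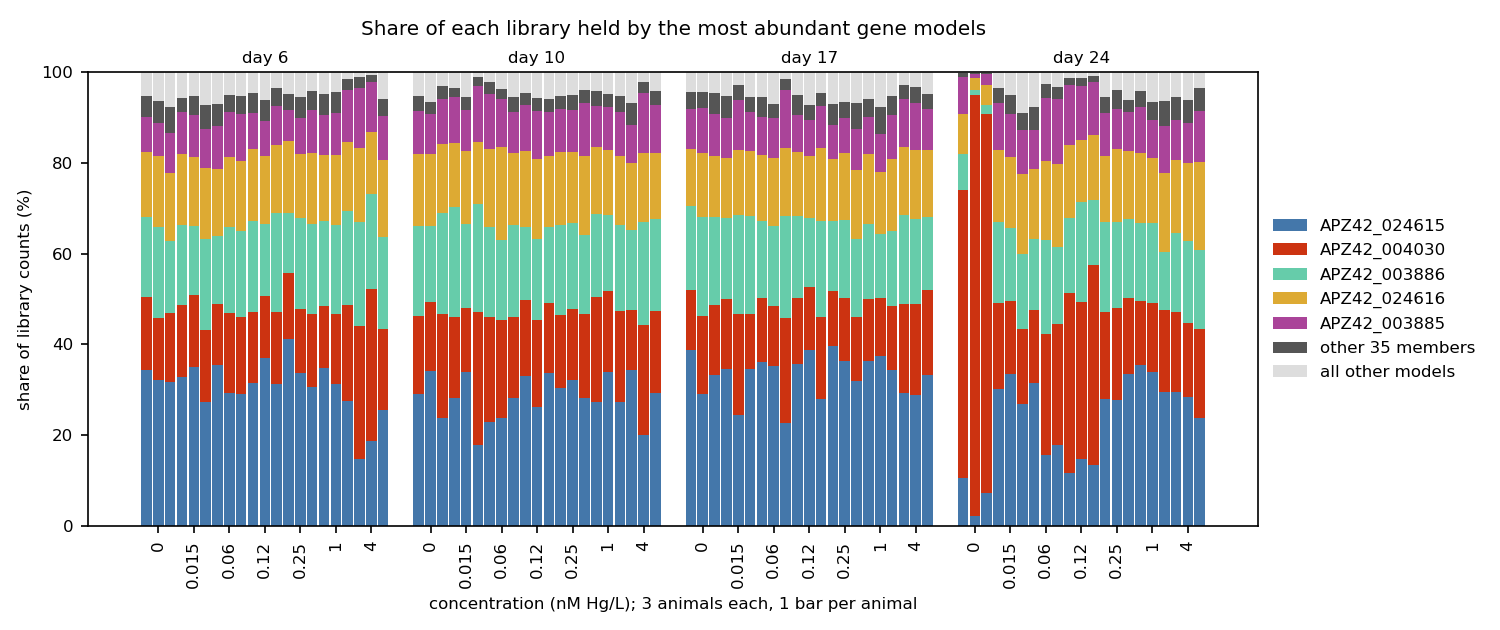
Stacked bars give the share of counts (%, linear axis) in each of the 84 libraries, 1 bar per animal, ordered by day and then by concentration in nM Hg/L. Colours mark the 5 highest models, dark grey the other 35 members and light grey all remaining models; the 3 animals at concentration 0 on day 24 are filled mainly by APZ42_004030.

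The 3 animals with the highest shares differed from the others in which of the 5 models filled the library. APZ42_004030 held 63.3%, 83.5% and 92.6% of counts in the animals at concentration 0 on day 24. In the 18 other day 24 animals its share was 14.0% to 44.1%, with a median of 18.5%, so the groups did not overlap, though overlap was not counted over all models. The 3 highest of those 18 were the animals at 0.12 nM Hg/L, with 39.6%, 34.7% and 44.1%. On the earlier days the share of APZ42_004030 ran from 13.3% to 33.4% at day 6 (median 15.9%), from 13.2% to 29.3% at day 10 (median 17.8%) and from 11.98% to 23.2% at day 17 (median 14.2%).

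In those 3 animals each of the 4 other models of the first 5 had a low share. Shares of 1 total are tied in their sum, and here the 4 models together held 35.6%, 7.01% and 16.01% of counts. In every other day 24 animal they held at least 53.7%. Their low shares therefore follow in part from the high share of APZ42_004030, and any further fall was not tested. Replicate 1 of 4 nM Hg/L on day 6 cannot decide this, since APZ42_004030 held only 29.3% there and the 4 models 67.2%. In that library APZ42_003886 held 23.0% and APZ42_003885 13.3%. At concentration 0 on day 24, APZ42_024615 held 10.7%, 2.29% and 7.31%, against 11.6% to 35.5% (median 28.2%) in the other day 24 animals. APZ42_003886 held 8.07%, 1.15% and 1.96%, against 12.7% to 21.9% (median 17.4%). APZ42_024616 held 8.64%, 2.56% and 4.41%, against 13.8% to 19.3% (median 15.8%), and APZ42_003885 held 8.21%, 1.01% and 2.32%, against 8.46% to 14.3% (median 9.99%). For each of the 4 models the lower group did not reach the other, and low shares in these 3 animals were general. How many of all models had ranges without overlap between these groups was not counted. Over all models tested, library shares were higher in the other day 24 animals by a median log2 change of 4.59. Of those models 80.4% were called higher, at an adjusted p below 0.05 in edgeR's test. The library with the highest share of APZ42_004030 also had the lowest total and the fewest counts outside the first 5 models. What part depth had in these shares was not tested.

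**Figure D2:**
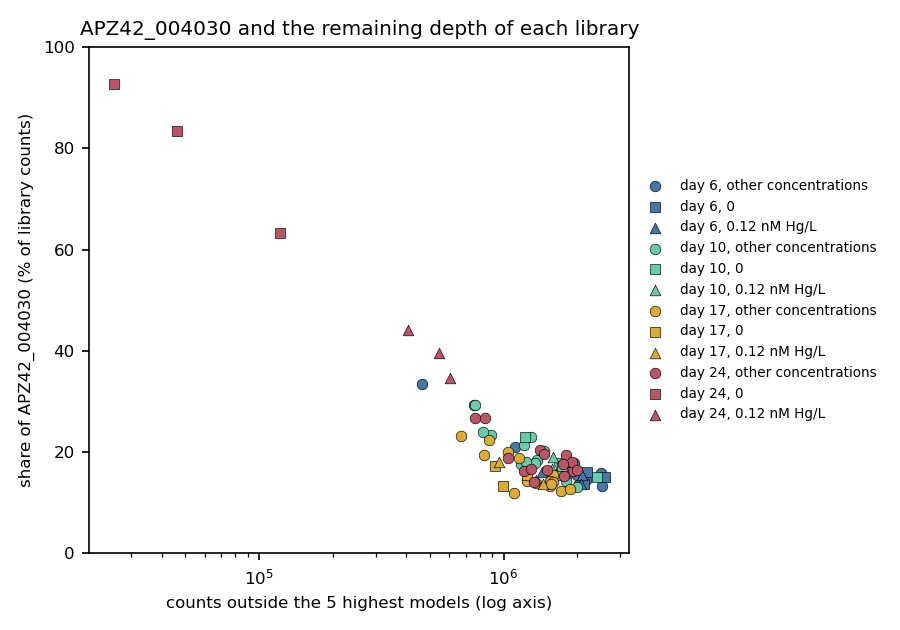
Each point is 1 library: the x axis gives counts outside the 5 highest models on a log scale and the y axis the share of APZ42_004030 in percent. Colour marks the day, squares mark concentration 0 and triangles 0.12 nM Hg/L; the 3 day 24 animals at concentration 0 lie at 25520 to 121871 counts and at shares of 63.3% to 92.6%.

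Changes between days were tested on counts scaled by TMM (trimmed mean of M-values), which uses the bulk of the models and so is less tied than a share to the few highest ones. All 40 members were among the 12685 models tested. Changes are given as log2 changes averaged over the 7 concentrations with their standard error (SE), and a change was called at an adjusted p below 0.05 in edgeR's quasi-likelihood test, with the Benjamini-Hochberg adjustment taken over the whole table of tested models. Levels below are counts per 1000000 of the TMM-scaled library size (CPM), and compare animals, not models of different length. The comparisons of days 10, 17 and 24 share the day 6 animals, so their values are given side by side. A model can also reach the 40 through some days alone, so the counts of called members are a description. When days were ranked alone, APZ42_007388 and APZ42_034074 were not among the 40 of day 6, and APZ42_004153 and APZ42_001605 were not among those of days 10, 17 and 24. APZ42_007246 was missing at days 10 and 17, APZ42_008638 at day 10, and APZ42_030553 and APZ42_016902 at day 24. The changes of these 8 members between those days follow in part from how members were chosen, so they are given as values without p.

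At day 10, 2 members were called higher than at day 6 and 19 lower, where 24.2% of all models tested were called higher and 18.7% lower. At day 17, 2 were called higher and 15 lower, beside 17.6% and 15.3% of all models. At day 24, 4 were called higher and 11 lower, beside 10.9% and 26%. The 2 called higher at days 10 and 17 were APZ42_007388 and APZ42_034074, which were not among the 40 of day 6. The median log2 change of the 40 was -0.42, -0.47 and -0.26 on the 3 days, and that of all models 0.02, 0.05 and -0.37. Without the 3 animals at concentration 0 on day 24, 2 members were called higher and 21 lower at day 10 (24.3% and 21.6% of all models), 2 and 16 at day 17 (17.8% and 17.8%), and 3 and 13 at day 24 (18.4% and 20.3%). All members called at days 10 and 17 were called again without those animals, and 14 of the 15 called at day 24. When the share of the library was tested in place of the TMM scale, 3 members were called higher and 33 lower at day 24, beside 3.91% and 61% of all models. That test was run only with the 3 animals at concentration 0 on day 24 included.

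**Figure D3:**
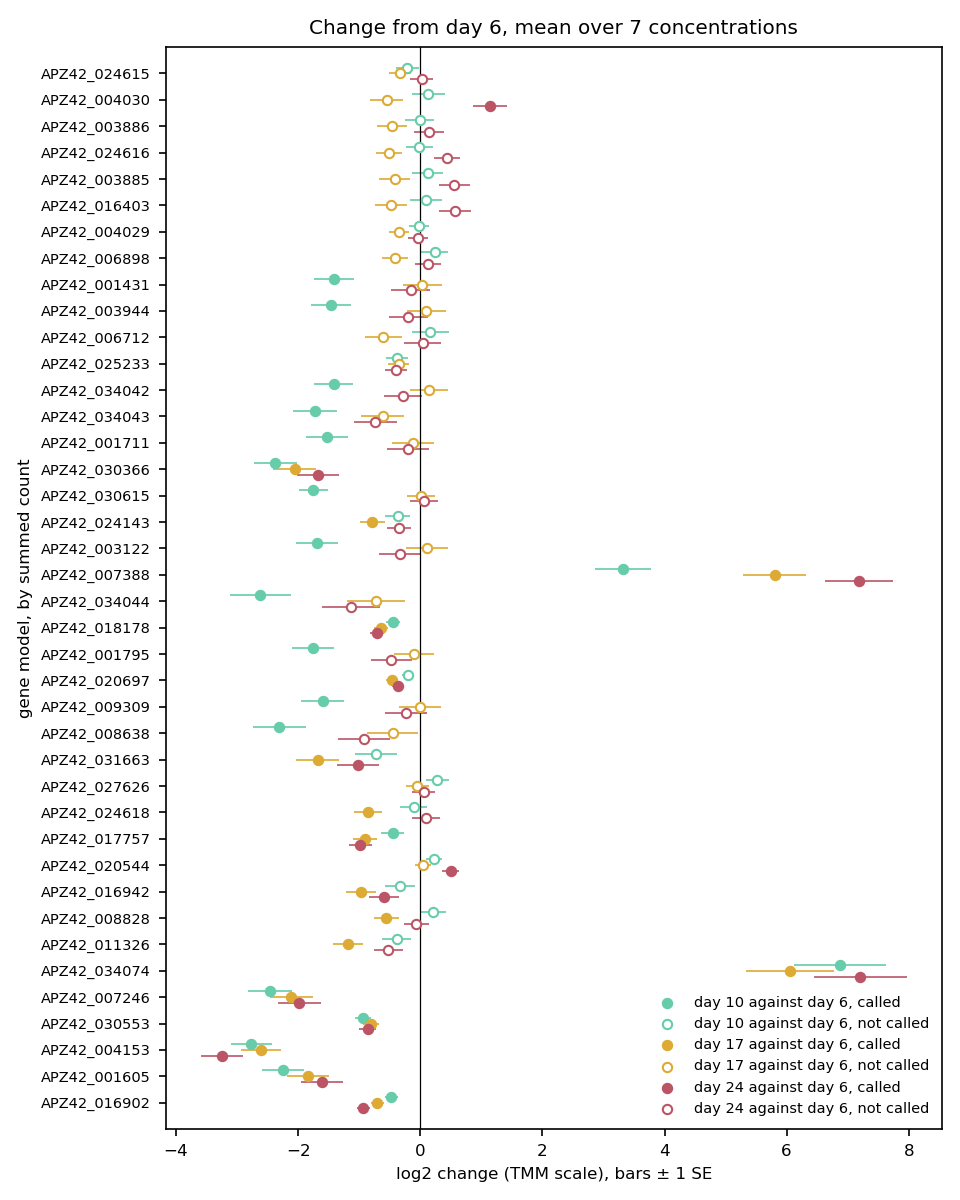
Log2 change from day 6 (x axis, TMM scale, points with 1 SE to each side) of the 40 members in order of summed count (y axis), with days 10, 17 and 24 in colour. Filled points were called and open points were not; APZ42_007388 and APZ42_034074 lie far to the right on all 3 days.

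None of the 5 highest members was called at day 10 or day 17 in edgeR's test, with log2 changes between -0.55 and 0.13. At day 17 limma-voom called APZ42_004030, APZ42_003886 and APZ42_024616 lower, and edgeR called APZ42_024616 lower (log2 change -0.54, adjusted p = 0.048) without the 3 animals at concentration 0 on day 24. At day 24 only APZ42_004030 was called, with a log2 change of 1.15 (SE 0.27, adjusted p = 0.00062). Without the 3 animals at concentration 0 its change was 0.17 and was not called, so the call rested on them. APZ42_024615, APZ42_003886, APZ42_024616 and APZ42_003885 had day 24 log2 changes of 0.02, 0.14, 0.44 and 0.56, none of them called, while DESeq2 and limma-voom each called APZ42_024616 and APZ42_003885 higher.

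Of the next members, APZ42_016403, APZ42_004029, APZ42_006898, APZ42_006712, APZ42_025233 and APZ42_027626 were not called on any later day either. Their log2 changes lay between -0.60 (APZ42_006712 at day 17) and 0.57 (APZ42_016403 at day 24). A missed threshold does not show equal levels: APZ42_016403 ranged from 3005 to 72070 CPM at day 6 with a median of 4979, and from 3343 to 53741 CPM at day 24 with a median of 7157. The lowest and highest animals of each day overlapped widely. These levels include the TMM factor of each library, which ran from 0.0719 to 2.56, and a low factor raises the CPM. As a share of the library, APZ42_016403 held 0.0680% to 0.453% in the 3 animals at concentration 0 on day 24. In all other animals its share was 0.420% to 1.39%, a narrower range than that of the CPM.

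APZ42_034074 and APZ42_007388 stood far below the other members at day 6, and both owe their place among the 40 to the later days. APZ42_034074, of 5 exons on scaffold03326 (328492 to 340135), ranged from 0.424 to 58.2 CPM at day 6, with a median of 0.976. At day 10 its range was 2.10 to 969 CPM with a median of 258, at day 17 it was 2.08 to 433 with a median of 189, and at day 24 it was 2.84 to 2956 with a median of 271. The medians stood far apart, while the lowest animals of each later day overlapped the highest of day 6. The log2 change from day 6 was 6.87 at day 10 (SE 0.75), 6.05 at day 17 (SE 0.72) and 7.21 at day 24 (SE 0.76).

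APZ42_007388, of 1 exon on contig45075 from 1 to 1327, had a higher median on each later day. It ranged from 3.52 to 36.6 CPM at day 6 (median 8.97), from 7.08 to 872 at day 10 (median 75.3), from 12.4 to 2746 at day 17 (median 492) and from 25.1 to 7128 at day 24 (median 1015). Against day 6 its log2 change was 3.32 at day 10 (SE 0.46), 5.81 at day 17 (SE 0.52) and 7.18 at day 24 (SE 0.55). Between day 10 and day 17 the log2 change was 2.49 (SE 0.44).

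The lowest log2 changes from day 6 were those of APZ42_004153, of 2 exons on contig23484 from 1 to 1049, which owes its place among the 40 to day 6. Its level was 128 to 551 CPM at day 6 (median 348), 6.21 to 162 at day 10 (median 47.6), 12.5 to 213 at day 17 (median 48.7) and 3.20 to 119 at day 24 (median 34.0). At day 24 every animal lay below every day 6 animal. Day 10 gave a log2 change of -2.77 (SE 0.33), day 17 gave -2.61 (SE 0.33) and day 24 gave -3.25 (SE 0.34). APZ42_007246, of 1 exon on contig44165, had log2 changes of -2.46, -2.11 and -1.98, and its level went from a median of 346 CPM at day 6 to medians of 50.5, 45.4 and 48.8 CPM.

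Further members called lower on the 3 later days were APZ42_030366, APZ42_017757 and APZ42_018178. APZ42_001605, APZ42_030553 and APZ42_016902 also had negative log2 changes on these days. These changes follow in part from how members were chosen, for APZ42_030553 and APZ42_016902 at day 24. APZ42_030366 went from a median of 1548 CPM at day 6 (712 to 2243) to 261 at day 10 (50.5 to 1081), 216 at day 17 (66.6 to 2334) and 306 at day 24 (78.4 to 2179). At days 17 and 24 its highest animals were as high as the day 6 animals, while most were lower. The smallest of these changes were those of APZ42_018178, with log2 changes of -0.45, -0.64 and -0.72, and its levels were among the least spread of all members.

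A group of 11 members was called lower at day 10 and not called at day 17 or 24 against day 6. It held APZ42_001431, APZ42_003944, APZ42_034042, APZ42_034043, APZ42_001711, APZ42_030615, APZ42_003122, APZ42_034044, APZ42_001795, APZ42_009309 and APZ42_008638. The day 10 log2 changes of the 11 lay between -1.41 and -2.62, and that of APZ42_008638 follows in part from how members were chosen. APZ42_034044 had the lowest: it ranged from 31.7 to 1901 CPM at day 6 (median 910), from 8.28 to 843 at day 10 (median 116), from 10.4 to 1388 at day 17 (median 622) and from 9.30 to 1241 at day 24 (median 504). Its change at day 10 was -2.62 (SE 0.50, adjusted p = 2e-05). APZ42_001431 had medians of 1808, 700, 1929 and 2087 CPM on the 4 days, with day 10 animals from 30.7 to 2291.

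The difference between days 17 and 10 was tested directly, in a comparison added after these day 10 values were seen. It called 12 members higher at day 17 and 6 lower, where 11% and 14.6% of all models were called, and without the 3 animals at concentration 0 on day 24 it called 12 higher and 8 lower, beside 12.3% and 16.5%. The 12 higher members were APZ42_007388 and all 11 of the group, whose log2 changes ran from 1.10 (APZ42_034043) to 1.89 (APZ42_034044, SE 0.49, adjusted p = 0.0031). This comparison shares the day 10 animals with the comparison of day 10 against day 6, so the pair of values is not independent. The 6 members called lower at day 17 than at day 10 were APZ42_006898, APZ42_020697, APZ42_031663, APZ42_024618, APZ42_008828 and APZ42_011326. APZ42_031663 fell by 0.95 and APZ42_011326 by 0.80 on the log2 scale, the lowest of them. APZ42_031663 ranged from 19.5 to 1253 CPM at day 10 (median 294) and from 27.1 to 670 CPM at day 17 (median 120). Its call was lost without any 1 of 9 libraries, and its change was -0.60 without the day 10 animal numbered replicate 3 of 0.015 nM Hg/L. Without that same library APZ42_011326 changed by -0.45 and was no longer called.

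Against day 6, 7 members were called lower at day 17 and not at day 10: APZ42_024143, APZ42_020697, APZ42_031663, APZ42_024618, APZ42_016942, APZ42_008828 and APZ42_011326. Their day 17 log2 changes lay between -0.46 and -1.68. APZ42_020544 was called higher at day 24, by 0.50 (SE 0.14, adjusted p = 0.0028). The median coefficient of variation of the CPM among the 3 animals of a group ran from 15.3% for APZ42_020697 to 78.2% for APZ42_034074, so the members differed in how closely animals of 1 group agreed. Between the lowest and the highest library, levels on the TMM scale differed 4.31-fold for APZ42_018178 and 6966-fold for APZ42_034074.

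**Figure D4:**
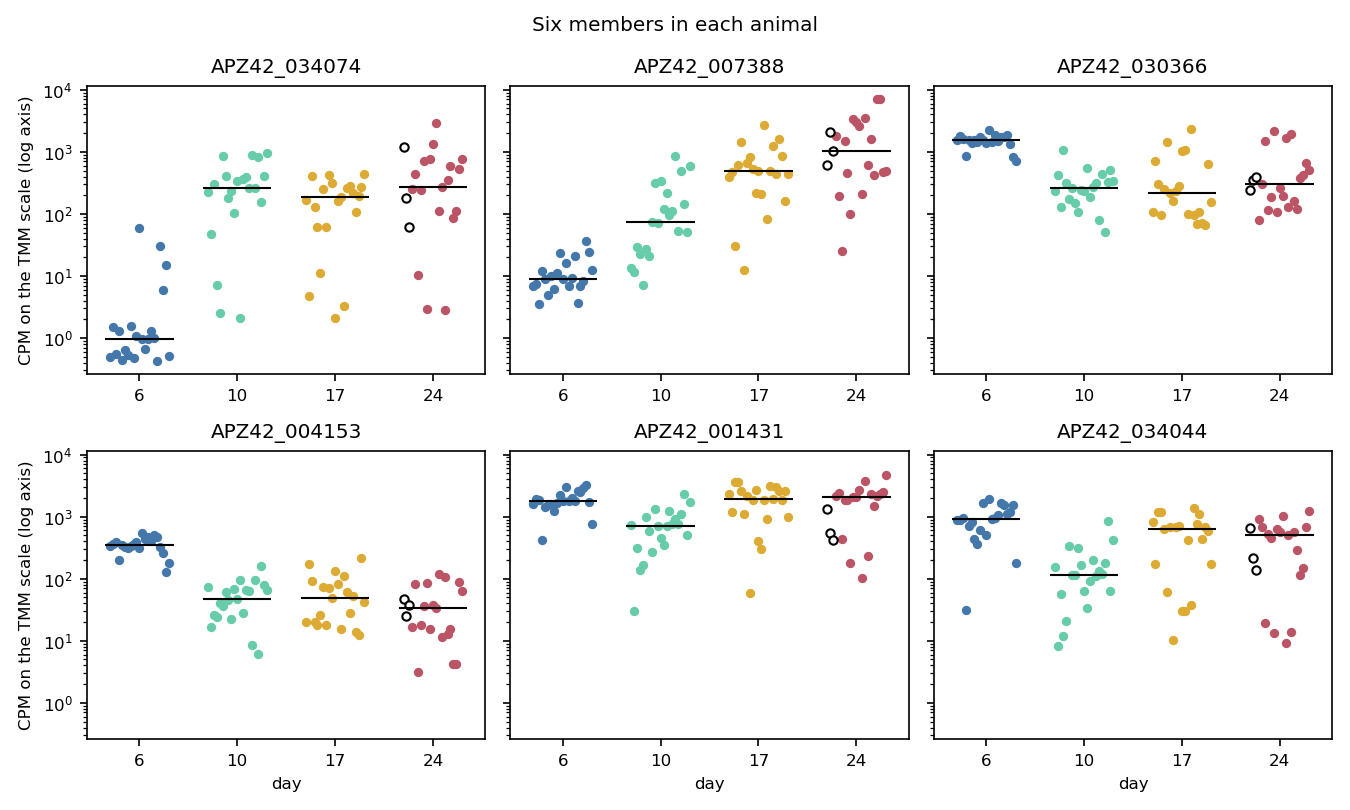
Each point is 1 animal: CPM on the TMM scale (log axis) against day for 6 members, with the median as a line and the animals at concentration 0 on day 24 as open circles. The upper row shows APZ42_034074 and APZ42_007388, which were higher on later days, and APZ42_030366; the lower row shows APZ42_004153, which was lower, and APZ42_001431 and APZ42_034044, which were low at day 10.

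Some pairs of members varied much less in their ratio of counts between animals than most pairs did. For each of the 780 pairs of members, the log2 ratio of counts was taken in each library, and its SD over the 84 libraries was 1.54 in the median pair. Only 13 pairs had an SD below 0.25, a limit chosen after the values were seen. These ratios do not depend on library size. Pairs were linked into sets through these ratios, as a description with no test, since animals share day and concentration.

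The largest set held 7 members: APZ42_001431, APZ42_003944, APZ42_034042, APZ42_001711, APZ42_003122, APZ42_001795 and APZ42_009309, with SDs of 0.17 to 0.44 between its pairs. APZ42_034042 stood at 0.422 to 0.842 of APZ42_003944 in the 84 animals, with a median of 0.702. APZ42_001795 stood at 0.205 to 0.387 of APZ42_003944, with a median of 0.290. Over the same animals the level of APZ42_003944 itself ranged 135-fold. All of the 7 belong to the 11 members that were low at day 10; APZ42_034042 lies on scaffold03326 and the others each on a contig of their own, all from base 1. Whether they are copies or pieces of similar sequence was not tested, since no sequence was used here.

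Smaller sets joined APZ42_030366, APZ42_007246 and APZ42_001605, all with negative log2 changes from day 6 on the later days, with SDs of 0.22 to 0.26. APZ42_006898 and APZ42_008828 had an SD of 0.20, and APZ42_008828 stood at 0.0693 to 0.139 of APZ42_006898. APZ42_018178 and APZ42_016902 had an SD of 0.25. Among the 5 highest members 1 pair qualified: APZ42_003885 stood at 0.394 to 0.9502 of APZ42_024616, with a median of 0.603 and an SD of 0.24. The neighbours APZ42_024615 and APZ42_024616 were not among the linked pairs.

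**Figure D5:**
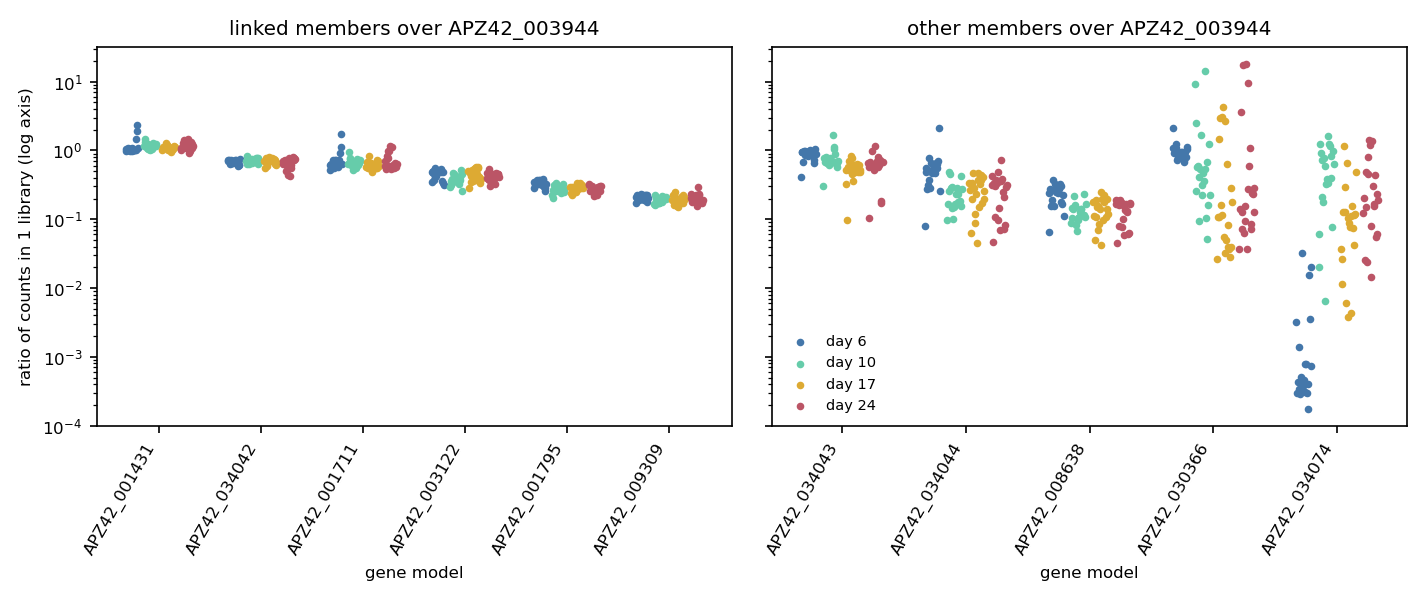
Ratios of counts within 1 library (y axis, log scale) are given for each animal over APZ42_003944, coloured by day. The left panel shows the 6 members linked to APZ42_003944, whose ratios stay in a narrow band on every day; the right panel shows 5 members outside the set, whose ratios spread further.

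With days averaged, 3 members were called higher and 0 lower for 4 nM Hg/L against 0, where 6.54% and 0.505% of all models were called, a similar share. As shares of the library 10 members were called, beside 9.71% of all models. APZ42_030553, of 4 exons on scaffold02850, ranged from 39.9 to 219 CPM in the 12 animals at concentration 0 (median 110.8) and from 107 to 411 CPM at 4 nM Hg/L (median 152.1). The ranges overlapped, and the log2 change was 0.91 (SE 0.17, adjusted p = 0.00055). APZ42_007388 ranged from 3.52 to 2113 CPM at 0 (median 29.7) and from 12.5 to 7128 CPM at 4 nM Hg/L (median 298), with a log2 change of 1.92 (SE 0.58). It was not among the 40 when concentration 0 was ranked alone, so no p is given for it. The third was APZ42_020697, with a change of 0.47. The median change of the 40 members was 0.45 and that of all models 0.51.

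None of these 3 calls was kept without the 3 animals at concentration 0 on day 24. That comparison called 3 other members, APZ42_004030, APZ42_003885 and APZ42_016403, all higher, with log2 changes of 1.71, 1.55 and 1.54, beside 0.559% of all models. These names were given after their values were seen, and the lowest adjusted p of any member was 0.042 in edgeR's test. APZ42_030553 then changed by 0.73 and APZ42_007388 by 2.20, neither called. The call of APZ42_007388 was also lost without any 1 of 4 libraries, and its change was 1.33 when the day 24 animal numbered replicate 1 of 4 nM Hg/L was left out. Without all libraries under 500000 counts outside the 5 highest members, replicate 2 of 4 nM Hg/L on day 6 among them, 0 members were called, beside 0.0688% of all models. Over all 84 libraries the TMM factors of replicates 1 and 2 of 4 nM Hg/L on day 6 were 0.258 and 0.123.

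For the slope on the rank of the 7 concentrations, 6 members were called higher and 0 lower, where 12.5% and 1.67% of all models were called, again a similar share. As shares of the library 18 members were called, beside 13.3% of all models. The log2 change per rank was 0.35 (SE 0.08) for APZ42_007388 and 0.15 (SE 0.02, adjusted p = 1.6e-05) for APZ42_030553. It was 0.16 for APZ42_001431, 0.13 for APZ42_030615, 0.08 for APZ42_020544 and 0.05 for APZ42_020697. Without the 3 animals at concentration 0 on day 24, only APZ42_007388 and APZ42_030553 were called, with slopes of 0.38 and 0.12, beside 9.72% of all models. The count of 6 became 11 without replicate 1 of concentration 0 at day 10, 13 without replicate 1 of concentration 0 at day 24, and 16 without the day 10 animal numbered replicate 3 of 0.015 nM Hg/L. The share of all models called in these refits was not set beside the counts, so they do not show whether the members alone shifted. In the test over all 84 libraries none of the 5 highest members was called, with slopes between -0.06 and 0.03.

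Within each day, the mean of the 6 exposed concentrations was compared with concentration 0. At days 6, 10 and 17 no member was called in edgeR's test, where 0%, 0.205% and 0.0394% of all models were called. At an unadjusted p below 0.05 the members numbered 4, 2 and 0 on these days. The share of all models at that limit was not counted, so nothing is read from these numbers. DESeq2 and limma-voom called 0 members as well on each of the 3 days. Of all models, DESeq2 called 0.0473%, 0.118% and 0.0788%, and limma-voom 0% on each day. On the TMM scale the log2 changes of the 5 highest members lay between 0.75 and 1.21 at day 6 and between 0.32 and 0.54 at day 10. At day 17 they lay between -0.12 and 0.13, and the SEs over these days were 0.37 to 0.60. As shares of the library at day 6, the 5 together held 86.51% to 90.01% at concentration 0 and 87.48% to 97.76% in exposed animals. APZ42_024615 held 31.7% to 34.3% and 14.8% to 41.3%. The TMM factors of replicates 1 and 2 of 4 nM Hg/L on day 6 were 0.258 and 0.123, and a low factor raises the CPM. What part the factors had in these changes was not tested.

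At day 24, 6 members were called higher in exposed animals and 10 lower, where 16.7% and 1.51% of all models were called. All 5 of the highest members were called lower in exposed animals on the TMM scale. The log2 change was -1.62 (SE 0.33, adjusted p = 0.00023) for APZ42_024615, -5.41 (SE 0.43, adjusted p = 1.3e-15) for APZ42_004030 and -1.21 (SE 0.45, adjusted p = 0.049) for APZ42_003886. It was -1.83 (SE 0.38, adjusted p = 0.00028) for APZ42_024616 and -1.97 (SE 0.44, adjusted p = 0.00075) for APZ42_003885. As shares of the library, 4 of these 5 directions turned: APZ42_024615, APZ42_003886, APZ42_024616 and APZ42_003885 were higher in exposed animals, by 1.87, 2.22, 1.62 and 1.43, and APZ42_004030 alone stayed lower. On the TMM scale the median change of all models was 1.60, and that of the 40 members 0.51.

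Of the members below the first 5, APZ42_024618 had 3494, 855 and 3353 CPM in the 3 animals at concentration 0 and 100.6 to 1098 CPM in the 18 exposed animals (median 222). Its log2 change was -3.30 (SE 0.37, adjusted p = 5.5e-10) on the TMM scale and 0.16 as a share. APZ42_006712 had 13211, 937 and 3542 CPM against 470 to 6140 CPM (median 1133), with a change of -2.07 (SE 0.53, adjusted p = 0.0034) on the TMM scale and 1.32 as a share. Both sets of ranges overlapped. APZ42_016403, APZ42_025233 and APZ42_031663 were also called lower on the TMM scale, with changes of -1.38, -1.48 and -1.70.

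Higher in exposed animals at day 24 were APZ42_030615, APZ42_018178, APZ42_020697, APZ42_020544, APZ42_030553 and APZ42_016902. APZ42_030615, of 32 exons on scaffold02850, had 340, 269 and 215 CPM at concentration 0 and 376 to 3492 CPM in exposed animals (median 653), with no overlap. Its log2 change was 1.89 (SE 0.54, adjusted p = 0.0086). APZ42_020544 had 139, 93.7 and 78.5 CPM at concentration 0 and 195 to 613 CPM in exposed animals (median 287), again with no overlap, and changed by 1.62 (SE 0.32, adjusted p = 0.00012). Both changes are close to the median of all models on this scale, 1.60, and overlap was not counted over all models.

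These day 24 values turn on how 3 libraries with few counts outside the first 5 models are scaled: their TMM factors were 0.0843, 0.0719 and 0.0800. DESeq2 called 1 member higher and 10 lower, beside 0.284% and 1.57% of all models. Limma-voom called 10 higher and 6 lower, beside 7.8% and 20.1%, and the test of library shares called 38 higher and 1 lower, beside 80.4% and 0.11%. Without replicate 1 of concentration 0 at day 24, APZ42_003886 changed by 0.016, APZ42_003885 by -0.79 and APZ42_006712 by -0.61, none of them called, and without replicate 3 APZ42_030615 missed the threshold.

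Day 24 was set against the mean of days 6, 10 and 17 for the same contrast of exposed animals and concentration 0. This difference was called for 15 members, 6 higher and 9 lower, where 15.3% and 1.06% of all models were called. All 5 of the highest members were among the 9 lower on the TMM scale, and all but APZ42_004030 turned to higher as shares of the library.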

How the data were processed

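Counts came from 84 libraries of 1 animal each, in 28 groups of 3 defined by the labelled concentration and day. Replicate numbers follow accession order and pair no animals, the numbers in the titles differ between libraries except for 1 pair, and the labels do not say whether animals of a group shared a vessel, so p-values measure the spread between these animals. Single animals gave the RNA, and libraries were made with a strand-marking kit after ribosomal RNA depletion, per the labels' protocols. The submitters' processing notes name STAR 2.7.5b as the aligner. The authors deposited 1 table of whole-number counts per gene model, not normalized; its length column is another value, the exon length, as deposited. How reads were counted, with which strand setting, and on which build and annotation is not given in the sources used here. All columns of the table were matched to a sample by name, and no row lacked an ID.

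From the counts, shares of each library and ratios between members were computed directly. Tests used R 4.3.3 and edgeR 4.0.16: models were filtered with filterByExpr (minimum count 10), which left 12685, TMM-scaled, and fitted with 1 mean per group over all 84 libraries (56 residual degrees of freedom, quasi-likelihood, robust). Contrasts of group means were tested, the Benjamini-Hochberg adjustment ran over all models, and an adjusted p below 0.05 was called. SEs come from the change and its F statistic. The procedure was tested on simulated counts in which all libraries had the same composition, apart from changes planted at day 10. No simulated library was filled mainly by 1 model, so that check does not bear on the day 24 animals at concentration 0. The alternatives were DESeq2 size factors, library totals alone (shares), counts outside the 5 highest members, no filter, DESeq2 1.42.0, limma-voom (limma 3.58.1), edgeR's older fit, and leaving out libraries; leaving out those under 500000 counts outside the 5 highest members, and the comparison of days 17 and 10, were chosen after seeing the data. Each library was left out only of comparisons that hold its group, and for exposed animals against concentration 0 only the animals at concentration 0 were left out in turn. Members, lists and tests were chosen with earlier results of these data known. The named members are the 5 highest in every comparison, the 2 highest and 2 lowest called changes among the others, those at the limit of 40 and neighbours on 1 sequence; any others were named after their values were seen. Lists of genes by function were not formed, since the IDs carry no names.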

Additional observations from a re-analysis of the deposited data

Results flagged for a closer look

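The contrast of exposed animals with concentration 0 differed between day 24 and the mean of days 6, 10 and 17 for 15 members in edgeR's test at an adjusted p below 0.05. On the log2 TMM scale the difference was -1.95 for APZ42_024615, -5.98 for APZ42_004030, -1.61 for APZ42_003886, -2.32 for APZ42_024616 and -2.56 for APZ42_003885. Below the 5 highest members it was -3.49 for APZ42_024618 and -2.47 for APZ42_006712. It was 1.72 for APZ42_030615 and 1.47 for APZ42_020544, where the median of all models was 1.55. As shares of the library every one of these differences was positive except that of APZ42_004030. Without replicate 1 of concentration 0 at day 24 the difference was -0.40 for APZ42_003886, -1.39 for APZ42_003885 and -1.01 for APZ42_006712, none of them called. That of APZ42_030615 was 1.75 without replicate 2 and 1.60 without replicate 3, and was called in neither. The 3 animals at concentration 0 on day 24 carry the day 24 side of this comparison, with 121871, 25520 and 46138 counts outside the 5 highest members. What part their depth had was not tested. Groups of 3 animals were too small for a check of single outlying animals.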

How the results depend on the processing

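No paired analysis was possible because the groups compared share fewer than 2 of the numbers in the titles: 1 number is on 2 libraries and the others on 1 each. Of the 39 changes of named members, 18 kept their direction and side of the threshold under every alternative tried. The 39 include changes from day 6 of APZ42_034074, APZ42_007388, APZ42_004153 and APZ42_007246, which follow in part from how members were chosen. The count of 18 is therefore a description and no measure of how firm the changes are. As shares of the library the counts of called members became 36 at day 24 against day 6, 10 for 4 nM Hg/L against 0, 18 for the slope, 39 for exposed animals at day 24 and 38 for its difference from the other days, where 64.9%, 9.71%, 13.3%, 80.5% and 81% of all models were called. Under limma-voom 28 members were called at day 17 and 26 at day 24 against day 6, beside 45.6% and 43.3% of all models. For the slope, 14.2% of all models were called in the main test. With DESeq2 size factors 2 members were called (10.4% of all models), and with no filter 3 (4.46%). Without the 3 animals at concentration 0 on day 24, 2 were called (9.72%). Without the libraries under 500000 counts outside the 5 highest members, 2 were called (9.9%). Without those libraries 0 were called for 4 nM Hg/L against 0, beside 0.0688% of all models. Outside the 5 highest members 10 were called for exposed animals at day 24, where those 5 could not be, beside 16.2% of all models. EdgeR's older fit called 9 in the difference between days, beside 2.92%. The cause of the other shifts was not tested.

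At day 24 against day 6, the split was 4 higher and 11 lower on the TMM scale, beside 10.9% and 26% of all models. It was 7 and 10 with DESeq2 (19.4% and 14.8%) and with its size factors (13% and 20.1%). Limma-voom gave 6 and 20 (23.4% and 19.9%). For exposed animals at day 24, DESeq2's size factors gave 2 higher and 12 lower, beside 6.47% and 3.11%. As shares, the day 24 changes of exposed animals were reversed to 1.87 (APZ42_024615), 2.22 (APZ42_003886), 1.62 (APZ42_024616), 1.43 (APZ42_003885), 0.16 (APZ42_024618) and 1.32 (APZ42_006712), and their differences from the other days to 1.94, 2.26, 1.56, 1.32, 0.47 and 1.48. Leaving out 1 library at a time gave 20 to 25 called members at day 10, 16 to 24 at day 17, 14 to 22 at day 24, 14 to 25 for days 17 and 10, 2 to 6 for 4 nM Hg/L against 0, 4 to 16 for the slope, 12 to 13 for exposed animals at day 24 and 11 to 14 for its difference. The share of all models called in these refits was not set beside the counts, so they do not show whether the members alone shifted. APZ42_003886 at day 24 ranged from -1.57 to 0.016.

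Every day 24 comparison with concentration 0 rests on 3 libraries with 25520 to 121871 counts outside the 5 highest members, and what part that depth had was not tested.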

Other observations

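When each day's animals were ranked alone, 38 of the 40 members held places at day 6 and 37 at day 17, while days 10 and 24 had 36 each. Across the 4 days 50 models held a place on at least 1 day and 32 on all of them. APZ42_007388 and APZ42_034074 were missing at day 6, and APZ42_004153 and APZ42_001605 at days 10, 17 and 24. APZ42_030553 and APZ42_016902 were missing at day 24 alone. These places follow from the same counts that chose the members and were not tested.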
